A study of Mus musculus with 18 samples.

Results

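Genes of DNA replication and mitosis were followed in follicular B cells in the first hours after their antigen receptor was crosslinked in vivo. The set held 52 genes. They comprised 11 genes of replication licensing, 5 of helicase activation, 17 of the replication fork, 7 regulators of the G1 to S transition and 12 of mitosis, and they were listed by name. A probe set that the platform annotation assigns to 1 such symbol was found for 51 of them, and for genes with several probe sets the one with the highest mean signal was used. No probe set was named Ccnb1 in the annotation used here, and that gene was not analysed. All 51 passed the filter on low signals, among 11104 genes tested of 18193 genes named. RNA came from CD23-positive B lymphocytes of the spleens of C57BL/6J mice and was measured on Affymetrix Mouse Genome 430 2.0 arrays. Mice first received vehicle or PF-303, which blocks the kinase BTK, a relay of signals from the B cell receptor. The injection came 2 h before PBS or anti-IgD, an antibody that crosslinks the receptor of mature B cells, and the cells were taken 2 h after that. The 4 groups comprised 4 samples given vehicle and PBS, 4 given vehicle and anti-IgD (numbered 1, 2, 4 and 5), 5 given PF-303 and PBS, and 5 given PF-303 and anti-IgD. The labels give neither the age of the mice nor the doses, and they leave unsaid whether samples are from different mice. The p-values therefore rest on sample-to-sample spread that may be technical. The labels name CD23 alone as the mark of the cells, which other B cells and activated cells can carry.

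Replication of DNA is prepared in G1, when the origin recognition complex together with Cdc6 and Cdt1 loads the Mcm2 to Mcm7 helicase onto origins. Cyclin-dependent kinases then start S phase, and transcription factors of the E2F family switch on many of the genes that this needs, whereas genes of mitosis are mostly transcribed later, in G2. Mature follicular B cells are resting cells, and entry into the cycle after receptor crosslinking takes much longer than the interval studied here.

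E2F motifs and cell cycle homology regions are sequence elements known for their part in this timing, and some of the promoters of these genes held them. RefSeq promoters (250 bases before to 50 after the start of transcription, build GRCm38.p6) were at hand for 43 of the 52 genes, and 4 of them are printed 5′ to 3′ in the direction of transcription, with the matches described here in capitals. They were chosen to show genes that changed in different directions or that stand for mitosis. Pcna (chr2:132253131-132253430, minus strand) rose, Pold1 (chr7:44548766-44549065, minus strand) fell, Cdt1 (chr8:122567765-122568064, plus strand) rose, and Ccnb2 (chr9:70421505-70421804, minus strand) is a mitotic cyclin gene. The capitals mark a CCAAT box in Pcna, read on the other strand, an E2F motif in Pold1, also on the other strand, an E2F motif in Cdt1, and 2 cell cycle homology regions and 3 CCAAT boxes in Ccnb2.
Pcna: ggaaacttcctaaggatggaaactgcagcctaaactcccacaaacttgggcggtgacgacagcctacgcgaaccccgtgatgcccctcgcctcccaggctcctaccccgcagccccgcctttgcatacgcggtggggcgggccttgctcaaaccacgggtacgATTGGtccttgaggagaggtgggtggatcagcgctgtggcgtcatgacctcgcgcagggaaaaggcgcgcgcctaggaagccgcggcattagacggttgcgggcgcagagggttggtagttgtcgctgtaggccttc
Pold1: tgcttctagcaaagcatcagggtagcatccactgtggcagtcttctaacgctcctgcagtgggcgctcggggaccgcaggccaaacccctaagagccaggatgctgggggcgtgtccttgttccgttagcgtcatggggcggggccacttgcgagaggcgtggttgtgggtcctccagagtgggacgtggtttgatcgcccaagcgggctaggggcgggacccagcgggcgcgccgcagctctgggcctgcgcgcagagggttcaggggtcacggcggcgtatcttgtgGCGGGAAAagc
Cdt1: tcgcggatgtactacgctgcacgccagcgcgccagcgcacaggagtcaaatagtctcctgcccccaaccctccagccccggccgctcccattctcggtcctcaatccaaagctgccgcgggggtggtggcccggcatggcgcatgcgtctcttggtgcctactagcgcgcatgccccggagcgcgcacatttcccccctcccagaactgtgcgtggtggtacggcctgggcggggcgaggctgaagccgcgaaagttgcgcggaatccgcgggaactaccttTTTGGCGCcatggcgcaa
Ccnb2: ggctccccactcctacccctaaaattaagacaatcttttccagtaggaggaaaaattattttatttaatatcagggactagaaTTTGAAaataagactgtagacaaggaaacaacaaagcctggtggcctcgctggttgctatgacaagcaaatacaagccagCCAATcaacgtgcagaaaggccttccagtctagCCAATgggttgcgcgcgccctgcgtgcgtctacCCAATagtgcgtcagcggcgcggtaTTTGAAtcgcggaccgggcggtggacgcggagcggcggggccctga
The Pcna promoter held none of the E2F letters searched, and the E2F matches of Pold1 and Cdt1 lay just after the start of transcription. An E2F motif (TTTGGCGC, TTTGCCGC, TTTCGCGC or TTTCCCGC, on either strand) was found in the promoters of 7 of 10 licensing genes, 1 of 3 helicase activation genes, 4 of 14 fork genes, 4 of 6 G1/S regulators and 1 of 10 mitosis genes. It was present in 2.26% of all 32851 promoters of this length, and in 4.8% of the 9036 tested genes with a promoter. The cell cycle homology region (TTTGAA or TTCGAA, on either strand) showed another distribution, with 8 of 10 mitosis genes, 2 of 10 licensing genes, 2 of 3 helicase activation genes, 3 of 14 fork genes and 2 of 6 G1/S regulators, against 19.23% of all promoters and 16.5% of the tested genes. CCAAT boxes were found in 8 of 10 licensing genes, 3 of 3 helicase activation genes, 8 of 14 fork genes, 4 of 6 G1/S regulators and 9 of 10 mitosis genes, against 37.41% of all promoters and 42.7% of the tested genes. An E-box (CACGTG) was present in 6 of the 43 genes, namely Rfc1, Pola2, Rpa1, Fen1, Lig1 and E2f3, against 7.15% of all promoters and 12% of the tested genes. No match overlapped another in the printed promoters. A gene with several promoters was counted when any of them matched, and a match is a description of the letters and not of binding.

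**Figure D1:**
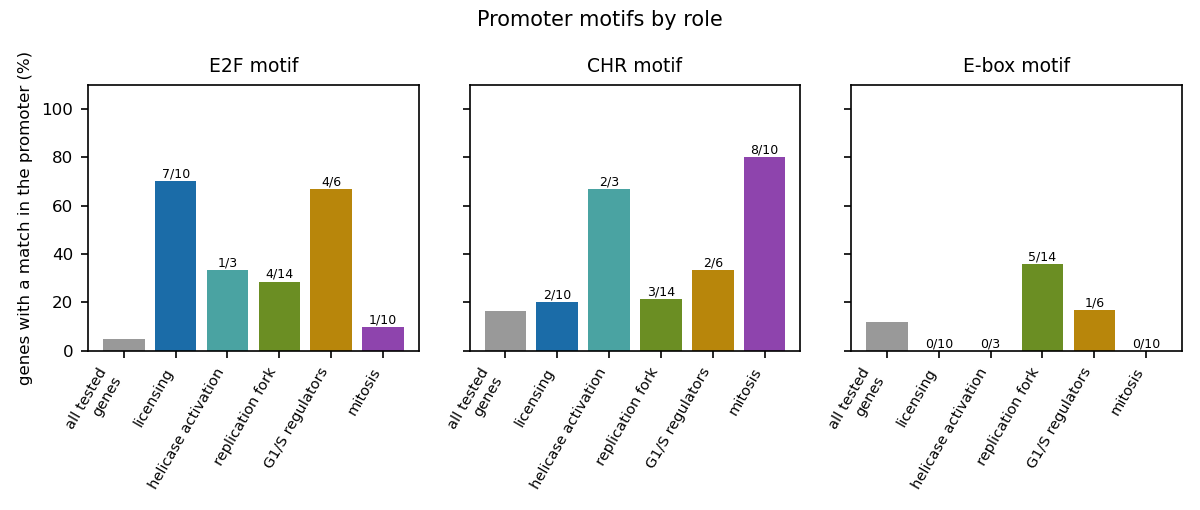
Share of genes (%) with a match to the E2F motif, the cell cycle homology region (CHR) or the E-box in the 300 bases around the start of transcription, for the 9036 tested genes (grey) and for each role, with the number of genes above the bars. E2F matches stand highest in licensing genes (7 of 10) and the cell cycle homology region in mitosis genes (8 of 10).

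The 18 arrays had been scaled to one 2%-trimmed mean signal (99.96 to 99.97), so each value is relative to the rest of its array. Differences are given as log2(signal + 16) ± SE of the limma fit over all 18 arrays, which makes changes of weak signals smaller than the ratio of the signals. A gene was called higher or lower at an adjusted p under 0.05 (limma, Benjamini-Hochberg over the 11104 genes). Among the 51 members, 13 had a mean signal under 50, where this assay is noisy, and 45 were above the filter (15.2) on every array. All 7 follicular B cell markers with a probe set, of 9 listed, were above the filter on every array. Of 8 T cell markers with a probe set, of 9 listed, 2 were above the filter on every array, and Cd3e, Cd4 and Cd8b1 were below it on every array. Spike-in controls gave over 2 times the median signal on 6 arrays, namely 3 and 4 of the PBS group with vehicle, 3 and 4 of its PF-303 counterpart, and 1 and 3 of the anti-IgD group with PF-303. Signals come from bulk RNA, in which fewer cells of a kind and less RNA per cell cannot be told apart.

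Anti-IgD changed 21 of the 51 genes within 2 h in vehicle-treated mice, and more of them fell than rose. The 5 genes that rose were Pcna, Pold2, Cdt1, Fen1 and Cdc25a, against 17.4% of all genes tested that rose. The 16 that fell were led by E2f2, Pold1, Rfc1 and Rpa1, against 30.6% of all genes. The median difference was -0.20 over the members and -0.13 over all genes. The number that fell was 9 without replicate 4 of anti-IgD with vehicle and 10 without replicate 3 of PBS with vehicle. The groups of arrays did not overlap for 19 of the 51 members and for 42.3% of all genes. The split between rises and falls depended on the scaling. With every array shifted to one median of log2 values, the differences of this comparison moved up by 0.16, and 12 members were higher and 7 lower. Those 12 included all 5 that rose as deposited, together with Orc2, Mcm2, Mcm5, Mcm6, Rpa2, Ccne2 and E2f3, and all 7 that were lower had also been lower as deposited. Over all genes the same shift turned 1928 rises and 3394 falls into 2777 rises and 2178 falls. Quantile normalization gave 7 members higher and 8 lower, and 2323 rises and 2614 falls over all genes. Markers of cell type moved in the same comparison: 5 of the 7 follicular B cell markers were lower, with a median of -0.73 and summed signals of 19989 to 37384 with PBS and 14237 to 16930 after anti-IgD. The PBS sums of 30167 and 37384 were those of replicates 3 and 4, the arrays with high spike-in signals, and replicates 1 and 2 gave 19989 and 21166. No array of anti-IgD with vehicle had a high spike-in signal. Of 8 macrophage and monocyte markers 1 was higher, Cd14 (1.52 ± 0.55), with sums of 1548 to 2202 and 925 to 3281, and none of the 5 T cell markers tested was called. Their part in the changes of the members was not tested. Under all 30 alternative settings 10 of the 21 calls held: Cdt1, Pcna, Pold2, Fen1 and Cdc25a as rises and Rfc1, Rfc2, Pold1, Rpa1 and E2f2 as falls.

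**Figure D2:**
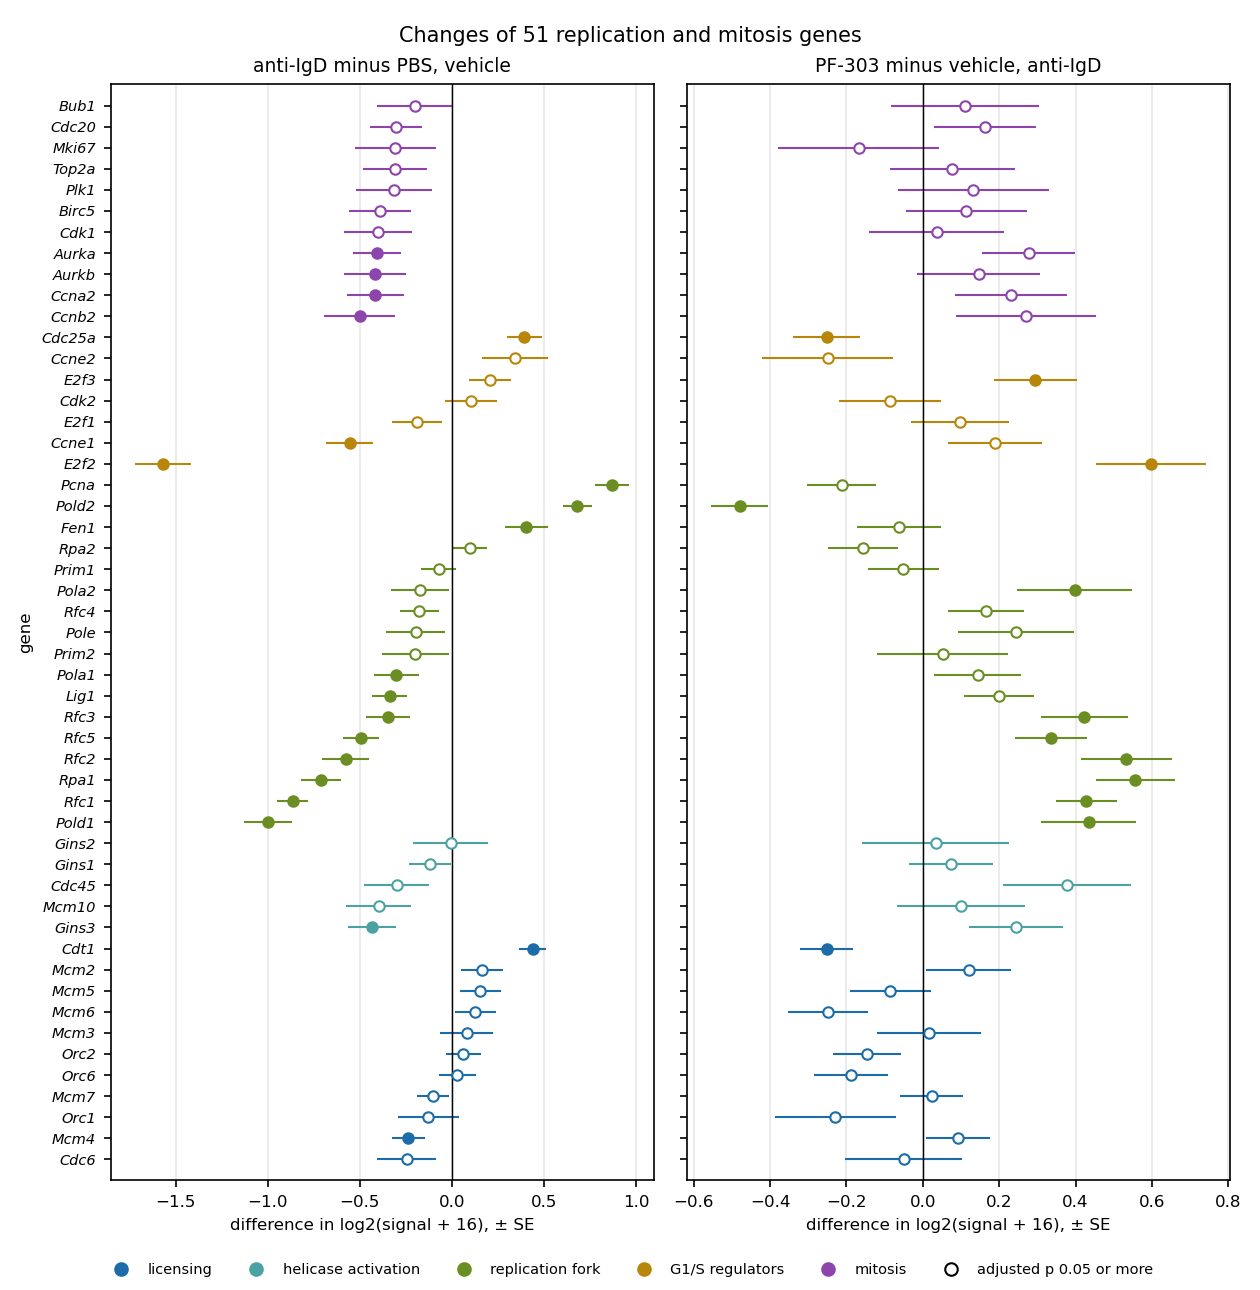
Difference in log2(signal + 16) ± SE for each of the 51 genes, coloured by role and ordered within it, for the response to anti-IgD with vehicle (left) and for the effect of PF-303 on anti-IgD-treated mice (right). Filled points passed an adjusted p of 0.05; the x axes differ in range. Among the licensing genes Cdt1 stands apart on the left, fork genes spread from -1.0 to 0.87, and all 11 mitosis genes lie below 0.

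Of the 11 licensing genes 1 was called higher, Cdt1, and 1 lower, against 17.4% and 30.6% of all genes. Cdt1, which brings the Mcm2 to Mcm7 helicase to origins, had signals of 1099.9, 1204, 1185 and 1108 with PBS and vehicle. After anti-IgD its signals were 1576, 1470.0, 1621 and 1577. Every anti-IgD array was above every PBS array, with a difference of 0.44 ± 0.073 (adjusted p = 3.43e-05, limma). The helicase itself moved little: the differences of Mcm2 to Mcm7 lay between -0.24 and 0.16, and Mcm4 alone was called lower. Mcm4 gave 538, 605, 585 and 589 with PBS and 513, 502, 449 and 493 after anti-IgD, a difference of -0.24 ± 0.088. That call was lost under 9 of the 30 alternatives, among them leaving out replicate 2, 3 or 4 in the PBS and vehicle group or replicate 4 or 5 in the anti-IgD and vehicle group (-0.27 to -0.20 over single arrays left out). A further probe set of Mcm4 gave -0.089 ± 0.15 and was not called. With the arrays shifted to one median 3 of the 6 helicase genes were higher and none lower. Of all 11104 genes, 2777 were then higher and 2178 lower. Of the origin recognition genes, Orc1 (-0.13), Orc2 (0.061) and Orc6 (0.028) were not called, nor was the loader Cdc6 (-0.25). Both further probe sets of Orc2 were higher, at 0.38 ± 0.11 and 0.42 ± 0.12 (adjusted p = 0.0086 and 0.00895, limma over 20836 probe sets), so that the probe sets of this gene did not give one answer. Orc1 and Cdc6 were near the limit of the assay, with mean signals of 11.9 and 23.4.

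All 5 genes that turn the loaded helicase on had differences below 0 as deposited, against 62.1% of all genes. Gins3 was the 1 of these 5 that was called lower, against 30.6% of all genes. Gins3, a subunit of the GINS complex that joins the helicase with Cdc45, had signals of 40.8, 48.9, 41.6 and 43.7 with PBS. After anti-IgD they were 28.6, 21.4, 39.7 and 25.1, below every PBS array (-0.43 ± 0.13, adjusted p = 0.00871, limma). A further probe set of Gins3 gave -0.18 ± 0.14 and was not called. The values of Mcm10, Cdc45, Gins1 and Gins2 were -0.40, -0.30, -0.12 and -0.009, none of them called. With the arrays shifted to one median or quantile normalized, 3 of these 5 genes were below 0 and none was called, with Gins3 at -0.27 and -0.26. All but Gins1 had mean signals under 50.

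The replication fork divided into genes that rose and genes that fell. Pcna encodes the sliding clamp that holds DNA polymerase on its template. It gave 1523, 1803, 1901 and 1654 with PBS and 3198, 3079.6, 2979 and 3322 after anti-IgD. Every array of the anti-IgD group was above every PBS array, a rise of 0.87 ± 0.095 or 1.825-fold (adjusted p = 1.12e-07, limma), the largest of any member. Pold2, the accessory subunit of DNA polymerase delta, rose from 239.6, 215, 219 and 222 to 368, 344, 397 and 364 (0.68 ± 0.078, adjusted p = 2.38e-07, limma). Its catalytic partner moved the other way. Pold1 gave 803, 732, 989 and 702 with PBS and 356, 369.5, 520.1 and 342 after anti-IgD, a fall of -1.0 ± 0.13 (adjusted p = 1.36e-06, limma) with no overlap. A further probe set of Pold1 gave -1.21 ± 0.094, and the difference between these subunits kept both directions under each of the 30 alternatives. Fen1, the nuclease that trims the flaps of Okazaki fragments, rose from 277, 222, 267 and 226 to 354, 284, 359 and 335 (0.40 ± 0.12, adjusted p = 0.00624, limma). Lig1, the ligase that seals those fragments in the next step, gave 162, 209, 148 and 179 with PBS and 143, 127, 125 and 139 after anti-IgD and fell (-0.34 ± 0.10, adjusted p = 0.00573, limma). The Lig1 call was lost with the arrays shifted to one median (-0.17) or quantile normalized (-0.19).

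The clamp loader went down while its clamp went up. Rfc1 to Rfc5 encode the 5 subunits of replication factor C, which opens the Pcna ring and places it on DNA. Of the 5 genes 4 fell, against 30.6% of all genes. Rfc1, the large subunit, gave 337, 381, 417 and 403 with PBS and 219, 211, 210.3 and 176 after anti-IgD. The groups were far apart (-0.86 ± 0.084, adjusted p = 2.00e-08, limma), and both further probe sets of Rfc1 also fell (-0.74 and -0.80). Rfc2 gave 304, 351, 459.6 and 358 with PBS and 269, 225, 224 and 239.6 after anti-IgD, again without overlap (-0.58 ± 0.13, adjusted p = 6.46e-04, limma). Rfc5 (-0.50 ± 0.10) and Rfc3 (-0.35 ± 0.12) fell less, and Rfc4 (-0.18 ± 0.11) was not called. All 5 were below 0 under each scaling tried, with 3 called after shifting the arrays to one median or quantile normalization. The Rfc3 call was lost under 7 of the 30 alternatives, among them leaving out replicate 1 or 3 in the PBS and vehicle group or replicate 4 or 5 in the anti-IgD and vehicle group (-0.42 to -0.29), and the Rfc5 call with the position row (the row letter of a code in the labels) as a block.

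Rpa1, the large subunit of the protein that coats single-stranded DNA, fell as well. Its signals were 1432, 1652, 1809 and 1413 with PBS and 962, 950.3, 993 and 902 after anti-IgD. No arrays of the groups overlapped (-0.71 ± 0.11, adjusted p = 1.21e-05, limma), and a further probe set gave -0.83 ± 0.069. Its partner Rpa2 was not called, at 0.10 ± 0.10. Among the polymerases that start strands, the catalytic subunit Pola1 fell (-0.30 ± 0.12, adjusted p = 0.0424, limma), a call lost under 11 of the 30 alternatives, among them leaving out replicate 1, 2, 3 or 4 in the PBS and vehicle group or replicate 2, 4 or 5 in the anti-IgD and vehicle group (-0.38 to -0.27). Its partner Pola2 (-0.17), the primase genes Prim1 (-0.074) and Prim2 (-0.20) and the leading-strand polymerase gene Pole (-0.20) were not called. In total 3 of the 17 fork genes rose and 8 fell, against 17.4% and 30.6% of all genes, with a median of -0.20 against -0.13.

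**Figure D3:**
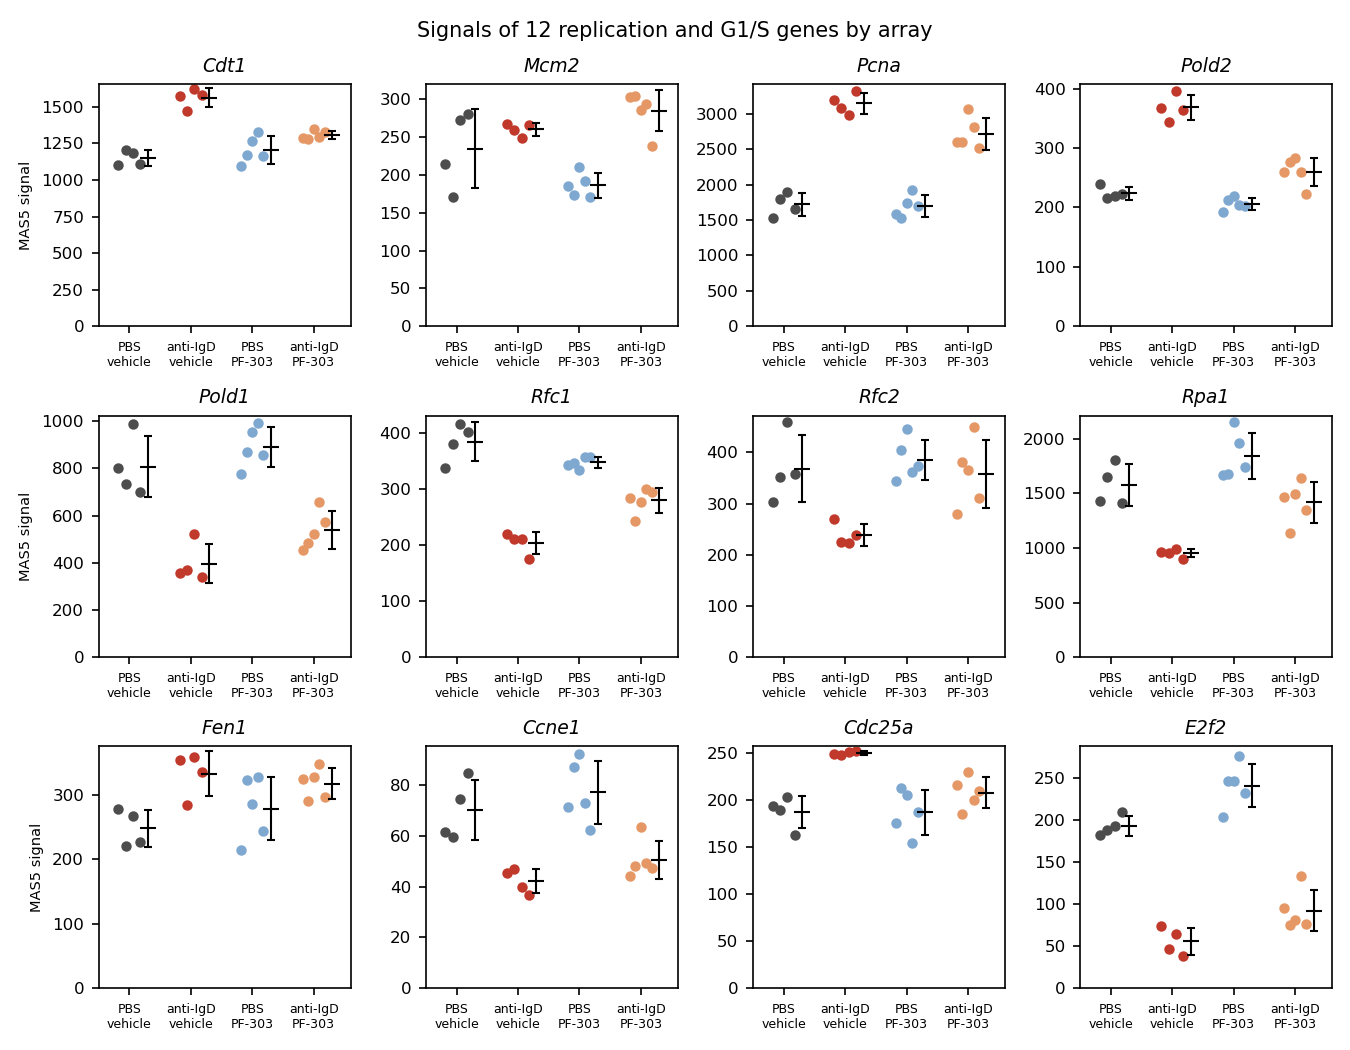
MAS5 signal of each array for 12 genes of licensing, the fork and the G1/S transition, by group (points), with the mean and SD of each group in black; the y axes start at 0 and differ between panels. Pcna, Pold2 and Cdt1 stand above both PBS groups after anti-IgD with vehicle, whereas E2f2, Pold1, Rfc1 and Rpa1 stand below them.

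Of the 7 regulators of S phase entry 1 rose and 2 fell, against 17.4% and 30.6% of all genes. E2f2, a transcription factor of the activating E2F class, had the largest fall of any member. Its signals were 182, 188, 192 and 209 with PBS and 73.4, 47.1, 64 and 38.3 after anti-IgD, so that the highest anti-IgD array was below 182 to 209, the range of the PBS arrays. The difference was -1.57 ± 0.15 (adjusted p = 1.79e-08, limma), and a further probe set gave -1.39 ± 0.16. The related E2f1 (-0.19 ± 0.14) and E2f3 (0.21 ± 0.12) were not called. Cyclin E is encoded by Ccne1 and Ccne2. Ccne1 gave 61.5, 59.4, 74.5 and 84.6 with PBS and 45.3, 46.8, 40.0 and 36.8 after anti-IgD, a fall of -0.56 ± 0.13 (adjusted p = 0.00105, limma). That call was lost with the position row as a block. Ccne2 gave 23.8, 27.9, 25.2 and 26.3 and 36.9, 51.6, 30.4 and 31.4, higher on every anti-IgD array, but its difference of 0.34 ± 0.18 did not pass the test. Cdc25a, the phosphatase that activates the cyclin E partner Cdk2, rose from 194, 189.8, 204 and 163 to 249, 249, 252 and 253 (0.39 ± 0.093, adjusted p = 0.00131, limma). Cdk2 itself was not called (0.10 ± 0.14).

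Mitosis genes had differences that all pointed down, and the calls among them depended on single arrays. All 11 had a difference below 0, against 62.1% of all genes, with a median of -0.39 against -0.13, and 4 of the 11 were called lower, against 30.6% of all genes. All 11 stayed below 0 with the arrays shifted to one median, with a median of -0.23 and 0 called, while after quantile normalization 10 were below 0 and 0 were called. Ccnb2, a cyclin of mitosis, gave 59.2, 82.7, 117 and 57.2 with PBS and 52.4, 66.6, 44.4 and 36.7 after anti-IgD. The groups overlapped (-0.50 ± 0.19, adjusted p = 0.037, limma). Ccna2, the cyclin of S phase and early mitosis, gave 75.3, 117, 105 and 100.03 and 73.3, 80.2, 45.7 and 85.2, also with overlap (-0.42 ± 0.15, adjusted p = 0.0297, limma). A further probe set of Ccna2 gave -0.21 ± 0.19 and was not called. Aurka, a kinase of the spindle poles, gave 42.9, 52.3, 58.8 and 47.1 with PBS and 37.7, 34.4, 26.7 and 37.0 after anti-IgD. This was the 1 of the 11 mitosis genes whose groups did not overlap (-0.41 ± 0.13, adjusted p = 0.0117, limma), where 42.3% of all genes did not overlap. Aurkb, the kinase of the chromosomal passenger complex, gave 63.7, 56.5, 47.1 and 40.5 with PBS and 29.9, 60.5, 24.7 and 29.3 after anti-IgD. Replicate 2 of the anti-IgD group stood within the PBS range there, and the call (-0.42 ± 0.17, adjusted p = 0.0463, limma) was lost under 20 of the 30 alternatives.

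The other 7 mitosis genes did not pass the test, and each had overlapping groups. Cdk1, the kinase that drives entry into mitosis, gave 44.0, 74.8, 80.3 and 61.7 with PBS and 42.3, 62.6, 33.3 and 43.3 after anti-IgD (-0.40 ± 0.19). Birc5, which encodes survivin, gave 62.8, 91.8, 85.4 and 82.4 and 74.8, 65.0, 46.7 and 46.1 (-0.39 ± 0.17). Cdc20, an activator of the anaphase-promoting complex, gave 209, 266, 258 and 154 and 167, 211, 152 and 167 (-0.30 ± 0.14). In these 3 genes the lowest PBS arrays lay inside the anti-IgD range. Plk1, a kinase of several steps of mitosis, gave 42.4, 39.0, 36.1 and 34.0 with PBS and 30.5, 34.7, 15.1 and 31.7 after anti-IgD (-0.31 ± 0.21). Top2a, the topoisomerase that untangles sister chromosomes, gave 189.9, 271, 208 and 154 and 184, 169.7, 134 and 156 (-0.31 ± 0.17). Mki67, which encodes the proliferation marker Ki-67, gave 160.3, 226, 188 and 137 and 207, 154, 106 and 106 (-0.31 ± 0.22). Bub1, a kinase of the spindle checkpoint, had the smallest difference, with 45.5, 65.6, 38.1 and 28.8 and 31.7, 44.5, 29.5 and 37.0 (-0.20 ± 0.20). Replicate 2 of PBS with vehicle was the highest array of its group for Cdc20, Bub1, Mki67, Top2a, Birc5 and Ccna2.

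The call of Ccnb2 was lost without replicate 2 or 3 in the PBS and vehicle group or replicate 1, 4 or 5 in the anti-IgD and vehicle group (-0.62 to -0.33), and that of Ccna2 without replicate 2, 3 or 4 in the PBS and vehicle group or replicate 4 in the anti-IgD and vehicle group (-0.53 to -0.26). The call of Aurka was lost without replicate 4 in the anti-IgD and vehicle group (-0.46 to -0.33), and that of Aurkb without replicate 1, 2 or 3 in the PBS and vehicle group, replicate 1, 4 or 5 in the anti-IgD and vehicle group, replicate 3, 4 or 5 in the PBS and PF-303 group or replicate 2, 3, 4 or 5 in the anti-IgD and PF-303 group (-0.62 to -0.31). The number of mitosis genes called fell from 4 to 0 without replicate 4 of anti-IgD with vehicle, to 1 without replicate 2 or replicate 3 of PBS with vehicle and to 2 without replicate 5 of anti-IgD with vehicle, and it rose to 6 without replicate 2 of anti-IgD with vehicle. The median difference over the 11 genes lay between -0.41 and -0.26 in these fits. Germinal centre B cells divide in the spleen, and 1 of their listed markers was above the filter on every array. The summed signal of the 5 of 6 listed germinal centre genes with a probe set was 500 to 835 with PBS and 395 to 457 after anti-IgD in vehicle-treated mice, and 512 to 860 and 320 to 521 in PF-303-treated mice, where the ranges overlapped. Most of each sum was the signal of Bcl6, with means of 558 and 364 in the vehicle groups and 526 and 348 in the PF-303 groups. Bcl6 itself was called lower with vehicle (-0.57 ± 0.16, adjusted p = 0.0063, limma), so the sums mainly follow this gene. Fas, also called lower with vehicle (-0.44 ± 0.16), had means of 30.0 and 17.9 there, near the filter. Signals of 8 of 10 listed erythroid genes summed to 266 to 1351 with PBS, the highest on replicate 3, and to 217 to 725 after anti-IgD in vehicle-treated mice, while Hba-a1 was below the filter on every array. Their part in the lower mitosis signals was not tested.

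**Figure D4:**
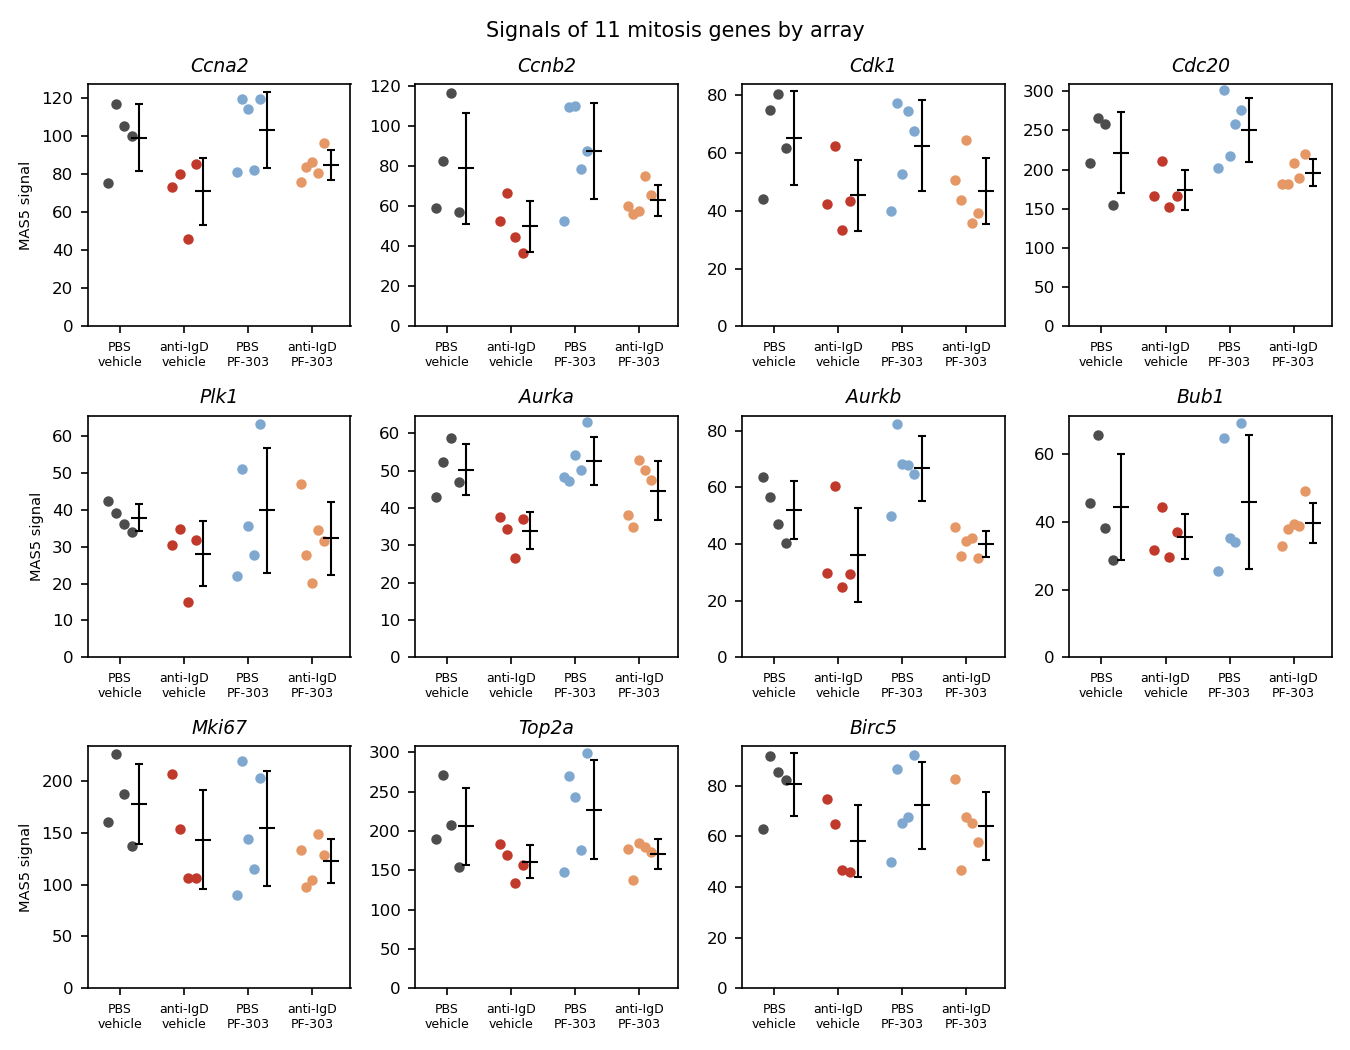
MAS5 signal of each array for the 11 mitosis genes by group (points), with the mean and SD of each group in black; the y axes start at 0 and differ between panels. The groups overlap in 10 of the 11 genes between PBS and anti-IgD with vehicle, where 42.3% of all genes did not overlap. The PBS arrays with PF-303 spread the most in several panels.

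Replication and mitosis genes were set side by side through their mean log2 level on each array. The mean over the 33 genes of licensing, helicase activation and the fork was 7.72 ± 0.084 (SD, n = 4) with PBS and 7.59 ± 0.032 (n = 4) after anti-IgD in vehicle-treated mice. In PF-303-treated mice it was 7.73 ± 0.044 (n = 5) and 7.67 ± 0.037 (n = 5). The mean over the 11 mitosis genes was 6.66 ± 0.20 and 6.30 ± 0.22 in the vehicle groups, and 6.69 ± 0.29 and 6.42 ± 0.086 in the PF-303 groups. The mitosis mean thus varied more within each group than the replication mean did, but it was taken over 11 genes of lower level, against 33. Of the 33 replication genes 4 rose and 10 fell, against 17.4% and 30.6% of all genes, with a median of -0.17. Their range from -1.0 to 0.87 was wider than that of the mitosis genes, from -0.50 to -0.20. A range tends to widen with the number of genes, here 33 against 11.

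PF-303 given before anti-IgD changed 12 of the 51 genes, among them most of the clamp loader. Against anti-IgD with vehicle, 9 genes were higher, where 19.8% of all genes were, and 3 were lower, where 10.4% of all genes were. The comparison shares the arrays of anti-IgD with vehicle with the preceding one, so that opposite signs in them are in part built in. Groups did not overlap for 12 members and for 26.8% of all genes. Of the 7 follicular B cell markers 3 were higher here, with a median of 0.61 and summed signals of 20083 to 29473. The highest sums, 29473 and 28996, were those of replicates 1 and 3, the arrays with high spike-in signals. The part of these markers was not tested. E2f2 had signals of 95.7, 75.7, 80.6, 133 and 76.5 with PF-303 and anti-IgD, above every array of anti-IgD with vehicle. Its difference was 0.60 ± 0.14 (adjusted p = 0.00282, limma), while its further probe set gave 0.28 ± 0.15 and was not called. Rpa1, with 1464, 1134, 1496, 1641 and 1351, was also higher on every array (0.56 ± 0.10, adjusted p = 2.68e-04, limma). Rfc2 gave 279, 381, 365, 449.9 and 310.0, likewise above the vehicle arrays (0.53 ± 0.12, adjusted p = 0.00163, limma). Of the other clamp loader subunits, Rfc1 (0.43 ± 0.080), Rfc3 (0.42 ± 0.11) and Rfc5 (0.34 ± 0.093) were also higher, and Rfc4 (0.16) was above 0 without a call. All 5 stayed above 0 under each scaling, with 3 called after the shift to one median and 2 after quantile normalization. Pold1 was higher (0.43 ± 0.12, adjusted p = 0.0102, limma), a call lost after the shift to one median, and its further probe set gave 0.76 ± 0.090.

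The 3 genes that were lower under PF-303 were Pold2, Cdc25a and Cdt1. Pold2 gave 259, 276, 283, 259 and 223, below every array of anti-IgD with vehicle (-0.48 ± 0.074, adjusted p = 3.62e-05, limma). Cdc25a gave 216, 186, 229.8, 200.3 and 210.0 (-0.25 ± 0.088, adjusted p = 0.0344, limma), a call lost under 11 of the 30 alternatives, among them leaving out replicate 1, 2, 4 or 5 in the anti-IgD and vehicle group or replicate 2, 4 or 5 in the anti-IgD and PF-303 group (-0.29 to -0.21). The further probe set of Cdc25a gave -0.049 ± 0.15 and was not called. Cdt1 gave 1289, 1282, 1349.8, 1293 and 1327, all below the vehicle arrays (-0.25 ± 0.069, adjusted p = 0.0081, limma). Its call was lost with the position row as a block. Pcna was not called in this comparison (-0.21 ± 0.090), with 2595, 2600.2, 3063, 2806 and 2514, and 1 of those arrays lay within the range of anti-IgD with vehicle. E2f3 (0.29 ± 0.11) and Pola2 (0.40 ± 0.15) were higher, and their calls were lost under 16 of the 30 and 19 of the 30 alternatives. Among these were leaving out replicate 1 in the PBS and vehicle group, replicate 2, 4 or 5 in the anti-IgD and vehicle group, replicate 1 or 5 in the PBS and PF-303 group or replicate 1, 2, 4 or 5 in the anti-IgD and PF-303 group for E2f3 (0.25 to 0.35) and leaving out replicate 1 or 4 in the PBS and vehicle group, replicate 1, 2, 4 or 5 in the anti-IgD and vehicle group, replicate 1 or 3 in the PBS and PF-303 group or replicate 2, 3 or 4 in the anti-IgD and PF-303 group for Pola2 (0.30 to 0.44). None of the mitosis genes was called, with 10 of the 11 above 0 and 1 below, where 38.2% of all genes were below 0. Their median was 0.13 against 0.083 over all genes. After the shift to one median 8 were above 0, and 6 after quantile normalization. With the arrays shifted to one median the differences of this comparison moved down by 0.11, 5 members were higher and 8 lower, and the lower ones then included Orc2, Orc6, Mcm6, Pcna and Rpa2.

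No member passed the test for PF-303 without anti-IgD. In PBS-treated mice 0 of 51 were called higher, where 0.072% of all genes were, and 0 were called lower, where 0.675% of all genes were, by limma. At an unadjusted p under 0.05 there were 2 members, Mcm2 and Rpa1, and 10.6% of all genes. The largest falls and rises were those of Mcm2 (-0.29 ± 0.11), a subunit of the replicative helicase, and E2f2 (0.29 ± 0.14). Mcm2 gave 215, 171, 273 and 281 with PBS and vehicle and 185, 173, 211, 192 and 170.2 with PBS and PF-303. The vehicle arrays of Mcm2 were widely spread, and without replicate 2 of PBS with vehicle its difference was -0.42 and passed the test. None of the members had groups that did not overlap, against 4.11% of all genes.

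In the presence of PF-303 anti-IgD still changed 12 members. Compared with PBS and PF-303, 4 genes rose, against 14.7% of all genes, and 8 fell, against 19.1%. The T cell markers Cd28 (0.47 ± 0.17) and Il7r (0.41 ± 0.15), 2 of 5 tested, and the monocyte marker Cd14 (1.57 ± 0.49) were also higher, and 1 of the 7 follicular B cell markers was lower. The summed T cell signals were 78 to 151 with PBS and 89 to 199 after anti-IgD, and their part was not tested. Pcna gave 1589, 1528, 1746, 1924 and 1691 with PBS and 2595, 2600.2, 3063, 2806 and 2514 after anti-IgD (0.68 ± 0.085, adjusted p = 1.55e-06, limma). E2f3, another activating E2F, gave 85.1, 105, 59.9, 74.4 and 83.2 and 128, 130.0, 120.3, 128 and 135 (0.58 ± 0.10, adjusted p = 1.24e-04, limma). Mcm2 gave 185, 173, 211, 192 and 170.2 and 303.48, 304, 286, 293 and 238 (0.57 ± 0.10, adjusted p = 1.57e-04, limma). The groups did not overlap for any of these 3 genes, nor for Pold2, which went from 192, 213, 219.5, 205 and 202 to 259, 276, 283, 259 and 223 (0.31 ± 0.070). Mcm2 and E2f3 had not been called in vehicle-treated mice, but the difference between their responses did not pass the test either (adjusted p = 0.101 and 0.134, limma).

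Falls under PF-303 were again led by E2f2, from 204, 246, 247, 275 and 232 to 95.7, 75.7, 80.6, 133 and 76.5 (-1.26 ± 0.14, adjusted p = 1.60e-07, limma). Pold1 went from 776, 869, 956, 989.7 and 857 to 455, 486, 522, 658 and 573 (-0.71 ± 0.12, adjusted p = 4.68e-05, limma). Aurkb went from 49.8, 82.3, 68.4, 68.1 and 64.9 to 46.0, 35.7, 41.0, 42.1 and 35.2 (-0.55 ± 0.15, adjusted p = 0.00636, limma). For each of these 3 genes all anti-IgD arrays lay below all PBS arrays. The further probe sets of E2f2 (-1.39 ± 0.14) and Pold1 (-0.31 ± 0.084) were also called lower, while that of Aurkb (-0.37 ± 0.19) was not called. Ccne1 (-0.48), Rpa1 (-0.38), Rfc1 (-0.30), Orc6 (-0.25) and Rfc5 (-0.23) fell too. The calls of Orc6 and Rfc5 were lost under 13 of the 30 and 19 of the 30 alternatives, among them leaving out replicate 1, 2, 4 or 5 in the PBS and PF-303 group or replicate 1, 2 or 3 in the anti-IgD and PF-303 group for Orc6 (-0.31 to -0.19) and leaving out replicate 1 or 2 in the PBS and vehicle group, replicate 1, 2, 4 or 5 in the anti-IgD and vehicle group, replicate 1, 2 or 4 in the PBS and PF-303 group or replicate 1, 4 or 5 in the anti-IgD and PF-303 group for Rfc5 (-0.27 to -0.17). With the position row as a block the calls of Rfc1, Ccne1 and Aurkb were lost as well. Groups did not overlap for 9 members and for 24.8% of all genes.

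The mitosis genes were also below 0 in PF-303-treated mice, all 11 of them, against 57.4% of all genes, with a median of -0.25 against -0.055. Ccnb2 gave 52.4, 109.6, 110.03, 78.4 and 87.7 with PBS and 60.1, 56.3, 57.4, 75.2 and 65.4 after anti-IgD (-0.36 ± 0.17), and Ccna2 gave 81.1, 119.9, 114, 82.3 and 119.5 and 75.7, 83.7, 86.7, 80.8 and 96.7 (-0.23 ± 0.14). Aurka gave 48.2, 47.3, 54.1, 50.2 and 63.0 and 38.2, 34.8, 52.7, 50.3 and 47.4 (-0.18 ± 0.11). None of these 3 was called, and their groups overlapped. Cdk1 gave 40.0, 77.4, 52.7, 74.7 and 67.7 with PBS and 50.5, 43.9, 64.7, 35.8 and 39.2 after anti-IgD (-0.31 ± 0.17). Cdc20 gave 202, 301, 218, 258 and 276 and 181, 181, 208, 189.7 and 219.7 (-0.32 ± 0.13). Birc5 gave 49.9, 86.5, 65.2, 67.6 and 92.0 and 82.8, 46.6, 67.6, 65.5 and 57.9 (-0.13 ± 0.15). The PBS arrays with PF-303 differed among themselves by as much as these group differences. Plk1 gave 22.0, 50.96, 35.6, 27.7 and 63.1 with PBS and 47.0, 27.8, 20.2, 34.5 and 31.5 after anti-IgD (-0.18 ± 0.19). Top2a gave 148, 269.7, 243, 176 and 299 and 177, 137, 185, 180.2 and 173 (-0.35 ± 0.15). Mki67 gave 90.5, 219, 144, 115 and 203 and 134, 97.7, 104, 149 and 129 (-0.25 ± 0.20), and Bub1 gave 25.6, 64.6, 35.2, 34.2 and 69.2 and 33.0, 38.0, 39.4, 38.7 and 49.2 (-0.10 ± 0.18). Replicates 2 and 5 of PBS with PF-303 were the highest arrays of that group for Ccna2, Cdc20, Plk1, Bub1, Mki67, Top2a and Birc5.

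The responses to anti-IgD with and without PF-303 rest on different arrays and were compared gene by gene. Across the 51 members the differences correlated with r = 0.845, and across all 11104 genes with r = 0.813, given as descriptions since genes are not independent replicates. The sign was the same in 43 members (84.3%) and in 77.1% of all genes. Of the 21 members changed in vehicle-treated mice, all 21 kept their sign under PF-303 and 9 were still called. Of the 5322 genes called in vehicle-treated mice, 4935 kept their sign and 3126 were still called. The difference was smaller under PF-303 for 20 of the 21 members (95.2%) and for 89.2% of those genes. Aurkb was the 1 member whose difference was larger, while its further probe set gave a smaller one under PF-303 (-0.37 against -0.64 with vehicle). Both sets were picked by their response with vehicle, so that smaller values in the other comparison are in part built in. The difference between the responses was called for 3 members: higher in 1, where 6.66% of all genes were, and lower in 2, where 3.12% were.

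Those 3 genes act in licensing and at the fork. Rfc1 fell from 343, 347, 335, 358 and 358 with PBS to 284, 243, 278, 301 and 295 after anti-IgD under PF-303 (-0.30 ± 0.075), a smaller fall than with vehicle by 0.56 ± 0.11 (adjusted p = 0.003, limma). Pold2 rose less under PF-303, by -0.37 ± 0.10 (adjusted p = 0.0274, limma). Cdt1 had 1096, 1171, 1265, 1329.8 and 1161 with PBS and PF-303, and its response differed by -0.32 ± 0.10 (adjusted p = 0.0431, limma). None of the 3 was called once the 6 arrays with high spike-in signals were dropped, where the values were 0.46, -0.36 and -0.25. The Cdt1 call was lost under 17 of the 30 alternatives, among them leaving out replicate 1 or 4 in the PBS and vehicle group, replicate 1, 4 or 5 in the anti-IgD and vehicle group, replicate 2, 3, 4 or 5 in the PBS and PF-303 group or replicate 1, 2, 4 or 5 in the anti-IgD and PF-303 group (-0.35 to -0.28). Without each of these 13 arrays the number lower was 0 or 1, and the number higher was 2 without replicate 1 or 2 in the PBS and vehicle group or replicate 1 in the anti-IgD and PF-303 group. Pold2 lost its call without replicate 4 in the anti-IgD and vehicle group or replicate 2 in the PBS and PF-303 group (-0.40 to -0.32).

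**Figure D5:**
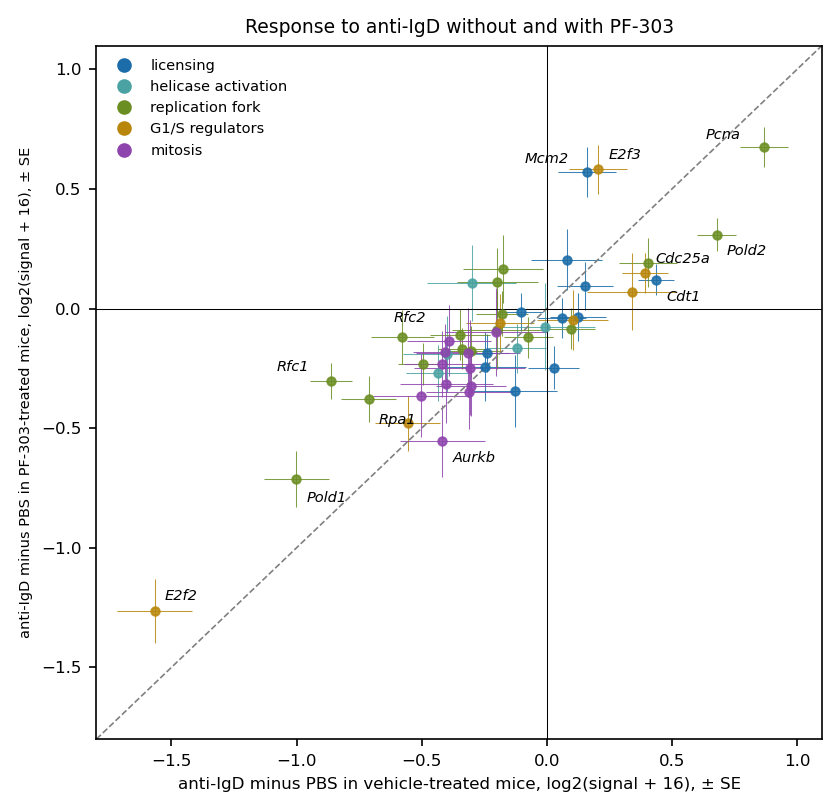
Difference between anti-IgD and PBS in log2(signal + 16) ± SE for each of the 51 genes, in vehicle-treated mice (x) and PF-303-treated mice (y), coloured by role, with the line of equal responses dashed. Points correlate with r = 0.845; Pcna and Pold2 lie at the upper right, E2f2 and Pold1 at the lower left, and Mcm2 and E2f3 lie above the line.

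Further probe sets were present for 31 of the members, 40 in all. For the 14 members called in vehicle-treated mice that had them, all 16 further probe sets had the same direction and 11 were also called. In the comparison of PF-303 with vehicle after anti-IgD, 13 further probe sets of 10 called genes all had the same direction and 6 were called. For anti-IgD under PF-303, 9 further probe sets of 8 called genes all had the same direction and 7 were called. There the further probe set of E2f3 gave 0.035 ± 0.16 and was not called, unlike the one used. Further probe sets of Fen1 (0.43 ± 0.084), Cdc25a (0.46 ± 0.14) and Cdt1 (0.20 ± 0.074) were called higher there, although those used were not. Cdc20 and Prim2, not called through the probe set used, each had a further one that was called lower after anti-IgD (-0.32 ± 0.13 and -0.28 ± 0.11). Mcm6 had a further one called lower with PF-303 (-0.39 ± 0.13), and both further probe sets of Orc2 were lower there (-0.46 and -0.56). Probe sets of the kinds that can bind several transcripts (names ending in x_at or s_at) were those of Mcm5, Pold1, Fen1, Ccne1, Cdc20, Aurkb, Mcm3, Mcm7 and Gins2.

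Further genes of replication, mitosis and E2F control were counted in vehicle-treated mice. Of 32 listed further replication genes 30 were tested, and 2 rose and 13 fell, with a median of -0.23. Of 42 further mitosis genes 41 were tested, and 1 rose and 13 fell, with a median of -0.29. Of 15 further genes of the E2F and retinoblastoma network 2 rose and 5 fell, with a median of -0.21. Over all genes 17.4% rose and 30.6% fell, with a median of -0.13, so the share of further mitosis genes that fell was close to that of all genes. The largest fall was that of Cdc25b, a phosphatase that activates the mitotic kinase Cdk1 (-1.62 ± 0.12, adjusted p = 2.49e-10, limma). Rbl2, a pocket protein that holds E2F genes off in resting cells, fell (-1.39 ± 0.14, adjusted p = 3.35e-08, limma), as did Tfdp2, a dimer partner of E2F proteins (-1.14 ± 0.12, adjusted p = 1.14e-07, limma). The largest rise was that of Dbf4, the activating subunit of the kinase that fires origins (0.79 ± 0.082, adjusted p = 5.90e-08, limma). Pole4, an accessory subunit of DNA polymerase epsilon, rose (0.49 ± 0.10), and so did Tfdp1, the other common E2F partner (0.48 ± 0.10). With PF-303 against vehicle after anti-IgD, Tfdp1 and Tfdp2 had differences of -0.55 ± 0.090 and 0.34 ± 0.12 (adjusted p = 7.59e-05 and 0.033, limma). With PF-303 against vehicle after anti-IgD, 9 of the 30 further replication genes were higher and none lower, 2 of the 41 mitosis genes were higher and none lower, and 4 of the 15 E2F and retinoblastoma genes were higher and 2 lower, where 19.8% of all genes were higher and 10.4% lower.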

How the data were processed

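RNA of CD23-positive splenic B cells was hybridised to 18 Affymetrix Mouse Genome 430 2.0 arrays. The deposited values are MAS5 intensity signals on a linear scale, made by the authors per the submitters' processing notes; the software version is not given in the sources used here. Every array has nearly one trimmed mean, so intensities are relative to the rest of the array, and precision is limited by the number of arrays. From these, log2(signal + 16) was computed. Probe sets above the median of all values (15.2) on at least 4 arrays were kept, with the one of highest mean signal per gene. Genes were tested with limma 3.58.1 in R 4.3.3 (1 mean per group over all 18 arrays, eBayes with trend, Benjamini-Hochberg adjustment over 11104 genes), and tables were made with Python 3.11.15 and pandas 2.3.3. The fit was tested on simulated data. Probe sets were named from the platform annotation and promoters taken from RefSeq. The members and gene lists were chosen with earlier results of these data known. Values for every array are given for called members with the 6 largest rises and falls after anti-IgD in vehicle-treated mice, for the 3 largest each way in the other comparisons, and for all 11 mitosis genes; a few others are given to show a contrast and were chosen after their values were seen. The other pathway genes named are the 3 largest called each way. Alternatives were 12 other settings and leaving out each of the 18 arrays; the fit over all probe sets was added after the data were seen.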

Additional observations from a re-analysis of the deposited data

Results flagged for a closer look

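In 12 of 204 sets of 4 or 5 arrays of a gene, 1 array stood apart from the rest of its group by Dixon's criterion, where chance gives about 1 in 20 (10.2). After anti-IgD with vehicle, replicate 2 was low for Cdc45 (11.2, others 25.8 to 27.4) and high for Gins2 (57.3, others 26.3 to 31.1) and Aurkb (60.5, others 24.7 to 29.9). In the same group Pola1 was high on replicate 1 (87.2, others 67.1 to 68.2), Pold1 on replicate 4 (520.1, others 342 to 370) and Cdk2 on replicate 5 (374, others 256 to 267). With PBS and PF-303, replicate 3 was high for Gins1 (69.0, others 64.6 to 65.8) and Rfc3 (173, others 131 to 139.8). With anti-IgD and PF-303, Mcm2 was low on replicate 5 (238, others 286 to 304) and Top2a on replicate 2 (137, others 173 to 185). In that group Prim2 was high on replicate 5 (116, others 73.5 to 83.7) and Ccne1 on replicate 3 (63.5, others 44.3 to 49.3).

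The response to anti-IgD differed between PF-303-treated and vehicle-treated mice for 3 genes by the test of the difference itself: Rfc1 (0.56), Pold2 (-0.37) and Cdt1 (-0.32).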

How the results depend on the processing

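Of the calls on members, 79 of 629 pairs of a call and an alternative lost the call after anti-IgD in vehicle-treated mice, 53 of 360 for PF-303 after anti-IgD, 35 of 360 for anti-IgD under PF-303 and 22 of 90 for the difference between the responses, and 0 reversed. Calls were gained in 39, 17, 22 and 8 pairs, and in 1 for PF-303 with PBS. With the arrays shifted to one median, anti-IgD in vehicle-treated mice gave 12 members higher and 7 lower (replication genes 9 and 5, mitosis genes 0 lower), and PF-303 after anti-IgD gave 5 higher and 8 lower. Quantile normalization gave 7 higher and 8 lower after anti-IgD in vehicle-treated mice (replication 4 and 6, mitosis 0 lower). For PF-303 after anti-IgD it gave 5 higher and 6 lower. With the position row as a block, PF-303 after anti-IgD gave 5 higher and 1 lower, anti-IgD under PF-303 gave 3 lower, and the difference between the responses 0 lower. The mean of all probe sets gave 7 higher for anti-IgD under PF-303 and 3 higher for the difference between the responses, where the spike-in covariate gave 2 higher, no filter and no trend each 1 lower, and leaving out the 6 arrays of high spike-in signal 0 either way. Mitosis genes lower numbered 1 with no filter and 2 without the high spike-in arrays. Leaving out 1 array at a time gave, after anti-IgD in vehicle-treated mice, 5 to 6 higher and 9 to 17 lower (replication 4 to 5 and 7 to 11, mitosis 0 to 6 lower). It gave 7 to 9 higher and 2 to 4 lower for PF-303 after anti-IgD, 0 to 0 higher and 0 to 1 lower for PF-303 with PBS, 4 to 4 higher and 6 to 10 lower for anti-IgD under PF-303, and 1 to 2 higher and 0 to 2 lower for the difference between the responses. Low signals limit what the 13 members with means under 50 can show.

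With the replicate block, 5 members were higher and 15 lower after anti-IgD in vehicle-treated mice, and 2 mitosis genes were lower. Deviations of the 24 pairs of arrays with the same number correlated between -0.161 and 0.225, with 7 over 0.1. Pairs of replicate 3 gave 0.144 to 0.199, and its arrays had spike-in signals of 2.26, 3.35 and 2.46 times the median. Pairs of replicate 1 gave -0.161 to 0.094. Whether samples of the same number share more than that number was not tested.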
